A study of Homo sapiens and Mus musculus with 160 samples.

Results

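Polysome loading is the step at which a cytoplasmic mRNA is taken up by enough ribosomes to sediment with polysomes, and its half-life is the time a message spends in the cytoplasm before that happens. The values compared here were those of K562, a human leukemia line with erythroid features, and NIH-3T3, a mouse embryonic fibroblast line. Genes were paired between the species by symbol, ignoring case, where the symbol was unique in each table. Of 14100 symbols found in all 4 tables, 8358 had a loading half-life in every table, and 7861 passed both remaining conditions, a most probable value inside its own 95% interval and below 6800 minutes in all 4. These 7861 genes are the members. Pairing by symbol is not an orthology call, and the members are the genes with enough signal to be fitted in both lines.

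Both lines were untreated and wild type, and each was labelled with 4-thiouridine, a uridine analog that marks newly made RNA, for 0, 15, 30, 60 or 120 minutes. Each of the 4 tables is the authors' Bayesian fit of 1 time course over 5 RNA fractions, from chromatin to polysomes, with whole cells as the last, so there were 2 tables per line, K562 replicates 1 and 2 and 3T3 replicates 1 and 2. The sources used here do not say whether the replicates were separate cultures, so p-values measure the spread between tables, which may be technical. Species and cell type differ together between the lines and cannot be told apart. The value used for each gene is the posterior mode in minutes, which the authors give to 2 significant digits. Read numbers per gene are not in the tables, and the depth behind each value is therefore unknown. The lines matched their labels: a whole-cell value was fitted for all 8 erythroid markers in K562 and for all 8 fibroblast markers in 3T3. In K562, 3 of the fibroblast markers had one (COL1A2, FN1 and SPARC). None of the erythroid markers had a value in 3T3. They were looked for by human symbol, which a mouse gene need not share, so that absence could not test the label.

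Translation begins when initiation factors bring the small ribosomal subunit to the 5′ end of an mRNA, and a message enters the polysome once several ribosomes have started on it. Messages of the translation machinery often begin with a 5′ terminal oligopyrimidine (TOP) tract, a C followed by a run of pyrimidines through which mTORC1 signalling controls their recruitment to ribosomes. Messages for secreted and membrane proteins are instead carried to the endoplasmic reticulum while their first peptides emerge.

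The start sites of 6 human TOP messages whose loading is described below are shown, because the tract itself defines the class. Each window runs from 10 bases before the annotated start to 20 bases from it on, read 5′ to 3′ from the RefSeq promoter table for GRCh38.p14, with the pyrimidine run that opens the message in capitals. CD44, whose start has no such run, is given for contrast. The windows lie at chr9:19380217-19380246 (RPS6, minus strand), chr19:49487598-49487627 (RPL13A, plus), chr6:132814559-132814588 (RPS12, plus), chr6:73521013-73521042 (EEF1A1, minus), chr19:3985444-3985473 (EEF2, minus), chr13:45341164-45341193 (TPT1, minus) and chr11:35139161-35139190 (CD44, plus).
RPS6: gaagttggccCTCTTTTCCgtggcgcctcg
RPL13A: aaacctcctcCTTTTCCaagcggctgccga
RPS12: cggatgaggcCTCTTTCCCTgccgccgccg
EEF1A1: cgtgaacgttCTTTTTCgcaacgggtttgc
EEF2: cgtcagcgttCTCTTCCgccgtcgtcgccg
TPT1: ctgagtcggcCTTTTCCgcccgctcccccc
CD44: ccgaggcagcctcattgcccagcggacccc

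Across the members, loading took minutes in both lines. The median half-life was 5.9 minutes in K562 replicate 1 and 11 minutes in K562 replicate 2, against 9.2 and 8.9 minutes in 3T3 replicates 1 and 2. The K562 tables thus lay on either side of both 3T3 tables. The median gene had a log2 difference (K562 minus 3T3) of -0.16, and an exact permutation test over the 4 table medians gave a two-sided p of 1, where the smallest p that 2 tables against 2 can reach is 0.333. Cytoplasmic half-lives of the same genes had medians of 89 and 79 minutes in K562 and 36 and 34 minutes in 3T3, several times the loading medians. The loading mode exceeded the cytoplasmic half-life of the same gene for 296 and 781 members in the K562 tables and for 531 and 558 in the 3T3 tables. DLX1, CD44, CCN1, HSPA1B and SLC1A5, described below, were among them in at least 1 table. For such genes the mode cannot be taken directly as a wait before translation.

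**Figure D1:**
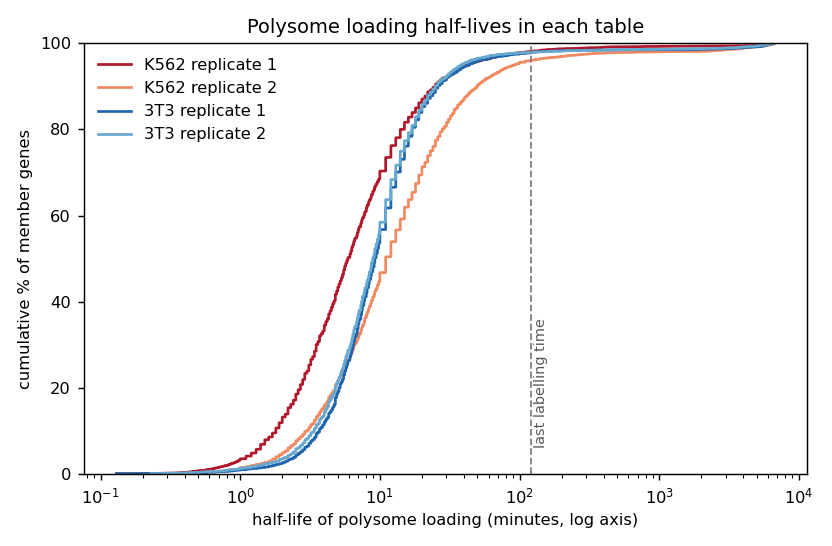
Cumulative percentage of the 7861 members (vertical axis) against their loading half-life in minutes on a log axis, 1 line per table. At the median the K562 replicate 1 curve lies to the left with 5.9 minutes, K562 replicate 2 to the right with 11, and the 3T3 curves close together between them. The order differs at the ends, because the K562 curves are more spread out. The dashed line marks the last labelling time, 120 minutes.

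The spread among genes was wide in each table, with 5th and 95th percentiles of 1.3 and 43 minutes in K562 replicate 1, 2.1 and 93 in K562 replicate 2, 2.7 and 44 in 3T3 replicate 1, and 2.4 and 38 in 3T3 replicate 2. The order of genes was shared more within a line than between lines. Spearman's rho across the 7861 genes was 0.541 between the K562 tables and 0.593 between the 3T3 tables, and 0.278 to 0.340 for the pairings of a K562 with a 3T3 table. Genes are not independent replicates, and tables of 1 line share an annotation and a genome, so these are descriptions. The median gene differed 2.28-fold between the K562 tables and 1.5-fold between the 3T3 tables, and its 95% interval spanned 4.1- to 4.9-fold in a table. Because the K562 tables are shifted against each other, each comparison below is given raw and after each table was centred on its own median. Centring does not remove a difference in spread. The lower and upper quartiles were 3.1 and 12 minutes in K562 replicate 1 and 5.7 and 23 in K562 replicate 2. They were 5.8 and 15 in 3T3 replicate 1 and 5.5 and 15 in 3T3 replicate 2. With the wider K562 spread, fast genes can read shorter and slow genes longer in K562 after centring. Its part in the list results was not tested.

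Some modes lay far outside the labelling times. Above 120 minutes there were 154 and 322 members in the K562 tables and 178 and 168 in the 3T3 tables, and 397 members exceeded 1000 minutes in at least 1 table. None did so in all 4, and 194 genes were above 1000 minutes in 1 K562 table but under 120 in the other. For the 3T3 tables that number was 179. Such values are little fixed by 120 minutes of labelling even where their printed interval is narrow. The upper limit of membership ran through the same region. Just inside it, RING1, a Polycomb ubiquitin ligase subunit, read 21 and 20 minutes in K562 and 6700 and 25 in 3T3, and just outside, AAMDC read 15 and 9.1 against 6900 and 5.5.

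Gene by gene, few messages could be told apart between the lines by their mean and replicate spread. The test compared 2 tables with 2, so few calls do not show that the lines are alike. On simulated data it called 0 of 50 genes at a log2 change of 6. That count cannot measure the power here, because the simulated scatter was an estimate from few tables per gene, and its error was added to the spread. With limma (two-sided, Benjamini-Hochberg adjusted over the 7861 members, called at an adjusted p under 0.05), 0 genes were called on the raw scale, 0% of those tested, with 907 at an unadjusted p under 0.05 and a lowest adjusted p of 0.0501. After centring, 8 were called, 0.102% of those tested, with 1194 at an unadjusted p under 0.05. The 3 longer in K562 (0.0382%) were DLX1, TMEM120A and STK10, and the 5 shorter (0.0636%) were BRAT1, PRIMPOL, CREM, GEMIN2 and RBM38, all at an adjusted p of 0.0461. Every one of the 8 had modes above 1000 minutes in both tables of 1 line. DLX1, a homeobox transcription factor gene, read 2300 and 2800 minutes in K562 and 10 and 7.4 in 3T3. The cytoplasmic half-life of DLX1 in K562 was 32 minutes in both tables. RBM38, an RNA-binding protein gene induced by p53, read 2.2 and 3.6 minutes in K562 and 1900 and 1700 in 3T3. MED11, a Mediator subunit, and TNRC6C lay just above the threshold after centring, both at an adjusted p of 0.0505, and CYB561D1 at 0.0523, again with modes of 3000 minutes or more in both tables of 1 line. When only the 6857 genes with modes from 1 to 120 minutes in all 4 tables entered the fit, 0 were called on either scale, and leaving out K562 replicate 1 moved the centred count to 188, leaving out K562 replicate 2 to 56, and leaving out either 3T3 table to 0.

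The authors' intervals gave a second way to separate genes. A gene counted as apart when both K562 intervals lay above, or both below, both 3T3 intervals. On the raw scale 58 members, 0.738% of all, were longer in K562 and 124, 1.58%, were shorter. After centring the numbers were 89, 1.13%, and 103, 1.31%. The intervals cover the fit of 1 time course, not variation between cultures. Modes alone, with no regard to intervals, did not overlap between the lines in 44.1% of members raw and 50.6% centred, which is the background for the gene lists below. By this count 25.3% of all members were longer and 25.2% shorter in K562 after centring.

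**Figure D2:**
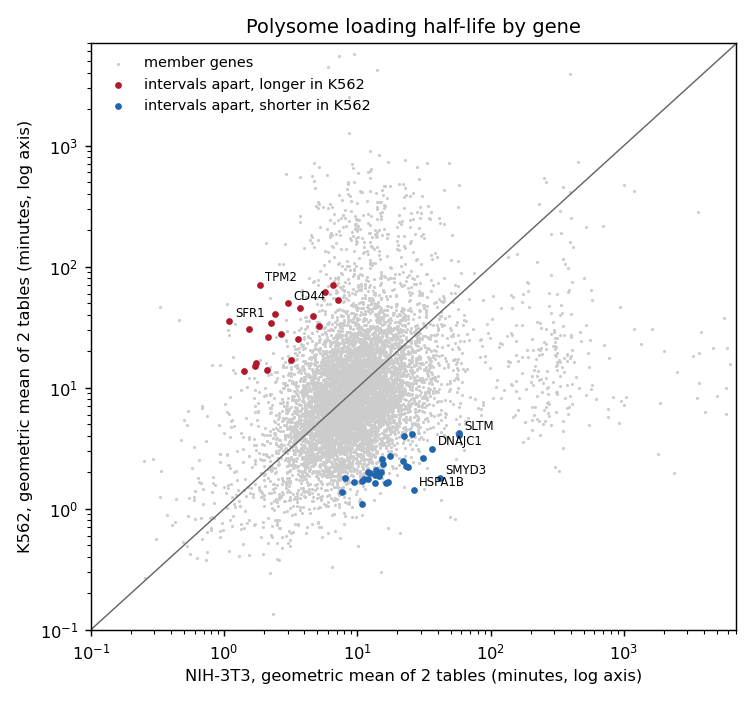
Loading half-life of each member in K562 against 3T3, as the geometric mean of 2 tables in minutes on log axes, with the line of equality. Colored points are the 20 genes longer and the 31 shorter in K562 whose intervals were apart raw and centred and whose modes lay from 1 to 120 minutes in all 4 tables.

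Within the labelled range, 51 genes had intervals apart on both scales with all 4 modes from 1 to 120 minutes, 20 longer and 31 shorter in K562. The range of 1 to 120 minutes was chosen after the values were seen, and none of the 51 passed limma, with adjusted p from 0.0913 to 0.278 centred. The largest differences toward longer waits in K562 were those of TPM2, SFR1, TAX1BP3, GSN and CD44. TPM2, a tropomyosin that coats actin filaments (GRCh38 chromosome 9, 35681992 to 35690121, minus strand), read 79 and 64 minutes in K562 and 2.3 and 1.5 minutes in 3T3. Its log2 difference was 5.26 ± 0.72 (SE, n = 2 against 2 tables) with a limma adjusted p of 0.138. GSN, the actin-severing protein gelsolin, read 37 and 44 minutes in K562 and 2.1 and 2.8 in 3T3. CD44, the hyaluronan receptor (chromosome 11, 35138870 to 35232402, plus strand), read 55 and 45 minutes against 3 and 3, a log2 difference of 4.05 ± 0.70 and a limma adjusted p of 0.258. For TPM2, GSN and CD44 both K562 values exceeded both 3T3 values more than 10-fold. In K562 the CD44 loading modes were longer than its cytoplasmic half-lives, 45 and 26 minutes. Those of TPM2 and GSN were shorter than their cytoplasmic half-lives there.

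Others in this direction were LITAF, a membrane protein of late endosomes, with 51 and 40 minutes against 3.5 and 4. NEDD4, a ubiquitin ligase, read 18 and 65 minutes against 2.5 and 2. ANAPC5, a subunit of the anaphase-promoting complex, read 72 and 68 minutes against 6.8 and 6.4. The lysosomal membrane protein LAMP1, with 11 and 18 minutes against 1.9 and 2.3, and the lysosomal hexosaminidase subunit HEXA, with 49 and 57 against 5.9 and 8.6, were among the 20. So was P4HB, a protein disulfide isomerase of the endoplasmic reticulum, at 12 and 19 minutes against 1.2 and 2.4. The K562 intervals of several of these genes were wide: that of TPM2 ran from 11 to 590 minutes in replicate 1 and from 6.5 to 450 in replicate 2.

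CCN1, a matrix-associated signalling protein (chromosome 1, 85580761 to 85583962, plus strand), was kept out of that range by its 3T3 values, which were under 1 minute. It read 28 and 47 minutes in K562 and 0.41 and 0.51 in 3T3, with a centred log2 difference of 6.48 ± 0.56 and a limma adjusted p of 0.0594. Its cytoplasmic half-life in K562 was 11 minutes in both tables, shorter than its loading modes there.

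In the other direction, the 31 genes with shorter waits in K562 were led by SMYD3, HSPA1B and COQ4. SMYD3, a lysine methyltransferase (chromosome 1, 245749342 to 246507312, minus strand), read 1.3 and 2.5 minutes in K562 and 49 and 35 in 3T3, a log2 difference of -4.52 ± 0.76 with a limma adjusted p of 0.257. THOC1, a subunit of the complex that couples transcription to mRNA export, read 2.4 and 2.9 minutes against 42 and 23. SLTM, an RNA-binding protein related to scaffold attachment factors, read 3.4 and 5.2 minutes against 91 and 37. NXF1, the mRNA export receptor, was also among the 31, as were BUD31, USP39 and SFSWAP, which act in splicing or its control. SSBP1, which binds single-stranded mitochondrial DNA, read 1.1 and 1.1 minutes against 9.8 and 12. IRAK1, a kinase of interleukin-1 signalling, read 1.5 and 1.8 minutes against 16 and 17.

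HSPA1B, an inducible heat shock protein 70 gene (chromosome 6, 31827735 to 31830255), read 1.2 and 1.7 minutes in K562 and 25 and 28 in 3T3. It has a near-identical neighbour, HSPA1A, so its reads may have been split in the authors' counting and the value is uncertain. The 3T3 loading modes of HSPA1B also exceeded its cytoplasmic half-lives there, 6.3 and 20 minutes. SLC1A5, a glutamine transporter of the plasma membrane (chromosome 19, 46774883 to 46788594, minus strand), read 3 and 5.7 minutes in K562 and 31 and 21 in 3T3. Its cytoplasmic half-life was shorter than the loading mode in K562 replicate 2 (4.8 minutes) and in 3T3 replicate 1 (18 minutes). The log2 difference was -2.62 ± 0.76 with a limma adjusted p of 0.383, and intervals were at most 4-fold in all 4 tables. Among the 356 members with intervals that tight, 4 were apart raw: SLC1A5 and UBP1, a transcription factor gene read at 4.8 and 4.7 minutes against 18 and 20, were shorter in K562, and TMEM120A and TNRC6C were longer. TNRC6C, a partner of Argonaute proteins, was near the bound in K562, at 5700 and 5800 minutes, and at 14 and 6.3 in 3T3. After centring UBP1 dropped out and ASXL1, a Polycomb-associated gene read at 14 and 25 minutes against 4.1 and 3.7, was added as longer in K562.

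**Figure D3:**
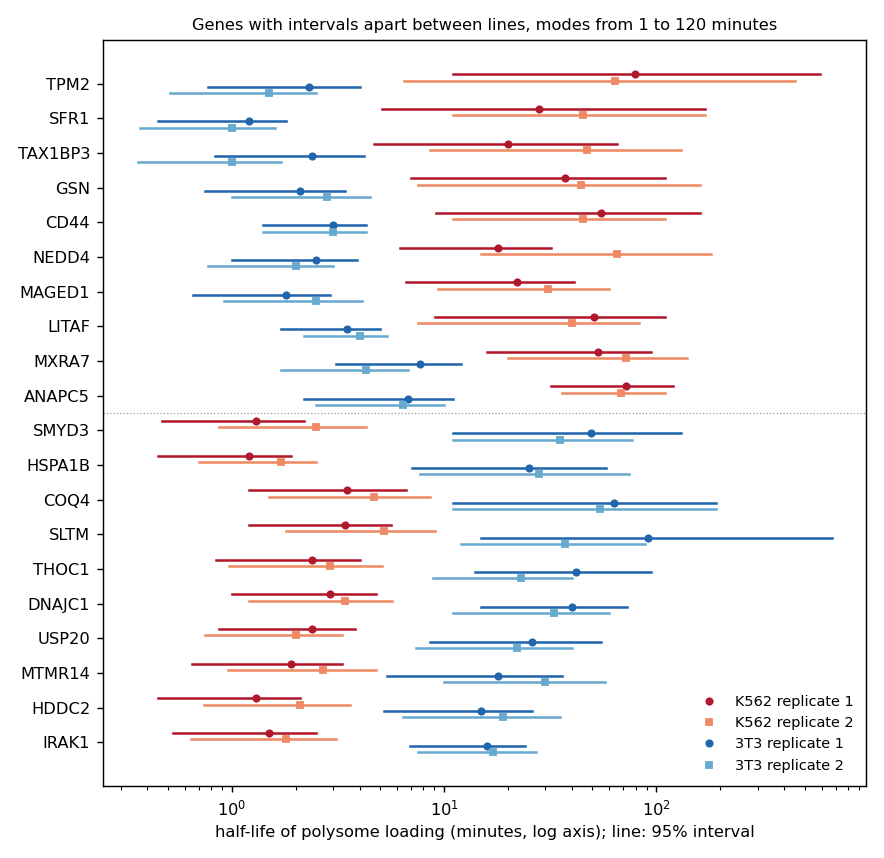
Loading half-life in minutes (log axis) of the 10 genes with the largest centred difference in each direction among the 51 with intervals apart and modes from 1 to 120 minutes. Points are modes and bars are the authors' 95% intervals in each of the 4 tables; above the dotted line both K562 tables lie to the right of 3T3, as for TPM2 and CD44, and below it to the left, as for SMYD3 and THOC1.

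Gene lists were then described by their medians in each table, by the number of members whose modes did not overlap between the lines and by the number with intervals apart. Of 35 lists, 8 had shorter medians in both K562 tables than in both 3T3 tables on the raw and on the centred scale, and 3 had longer medians on both. The other 24 overlapped raw. No list was tested, and the genes of a list are not replicates of a condition. The 8 were mitochondrial ribosomal proteins, aminoacyl-tRNA synthetases, SR proteins and hnRNPs, the core spliceosome, ribosome biogenesis, DEAD-box and DEAH-box helicases, DNA replication, and the nuclear pore with its transport receptors. The 3 were matrix and adhesion genes, solute carriers and lysosomal proteins. Without each table in turn, the raw medians of the 8 stayed below 0; the nearest to it was that of the core spliceosome, -0.01 without K562 replicate 1.

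**Figure D4:**
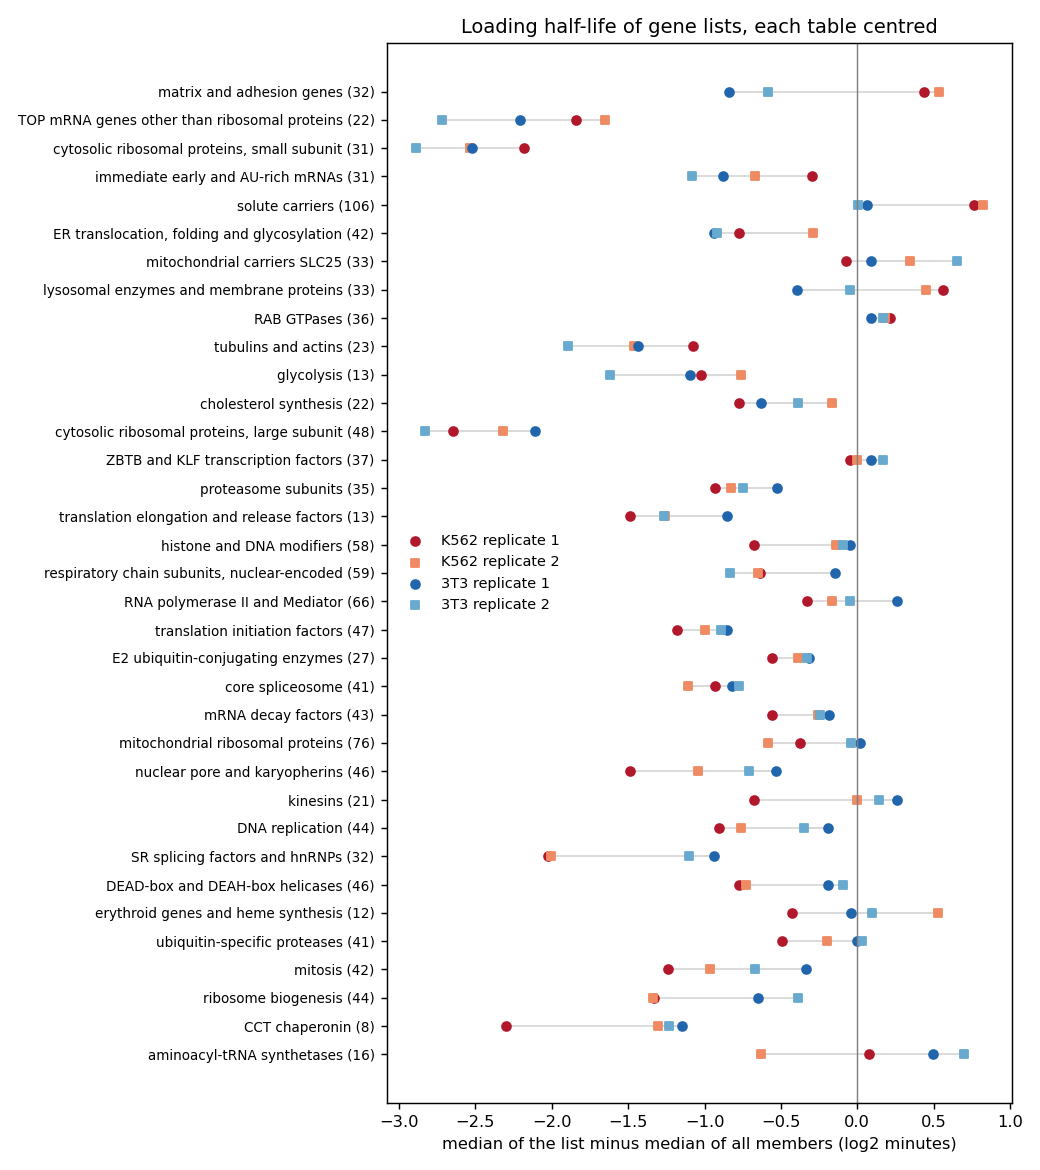
Median log2 loading half-life of each gene list minus the median of all members, in each of the 4 tables; numbers in brackets are members. The matrix and adhesion list lies furthest apart with K562 to the right (0.44 and 0.54 against -0.84 and -0.59), SR proteins and hnRNPs lie apart with K562 to the left (-2.03 and -2.01 against -0.94 and -1.10), and the large-subunit ribosomal proteins overlap.

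Matrix and adhesion genes, which include collagens, integrins, laminins, annexins and galectins, had the largest median difference of the 35 lists, 1.53 raw and 1.69 centred on the log2 scale. Only 32 of 125 matched symbols were members, since most had no loading half-life in all 4 tables. Their medians were 7.98 and 16.0 minutes in K562 and 5.15 and 5.93 in 3T3. After centring, modes did not overlap with K562 longer in 19 of 32 (59.4%, against 25.3% of all members) and with K562 shorter in 4 (12.5%, against 25.2%). Intervals were apart for 6, all longer in K562 (of all members 1.13% were): VIM, LGALS1, SPARC, MMP14, THBS1 and COL4A2. SPARC, a secreted collagen-binding glycoprotein, read 22 and 51 minutes in K562 and 0.96 and 1.5 in 3T3. COL4A2, a basement membrane collagen chain, read 94 and 44 minutes against 3.6 and 4.1. LGALS1, galectin-1, read 7 and 6.5 minutes against 0.66 and 0.7. VIM, the intermediate filament protein vimentin, read 2.7 and 9.1 minutes against 0.58 and 0.47. Those shorter in K562 included S100A13, at 3.5 and 13 minutes against 16 and 410, and TAGLN2, at 0.94 and 2.1 against 7.5 and 13. FN1, fibronectin, read 5.4 and 7.4 minutes against 2.2 and 1.3.

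The intervals of the matrix and adhesion list were wider in K562, with median widths of 6.52- and 6.56-fold, than in 3T3, with 4.36-fold in both tables. For all members the widths were 4.89- and 4.92-fold in K562. The part of this difference in precision in the result was not tested. The direction held without each table in turn, with raw medians from 1.41 to 2.07. The cytoplasmic half-lives of the same genes had medians of 77 and 65.5 minutes in K562 and 12 and 17 in 3T3.

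**Figure D5:**
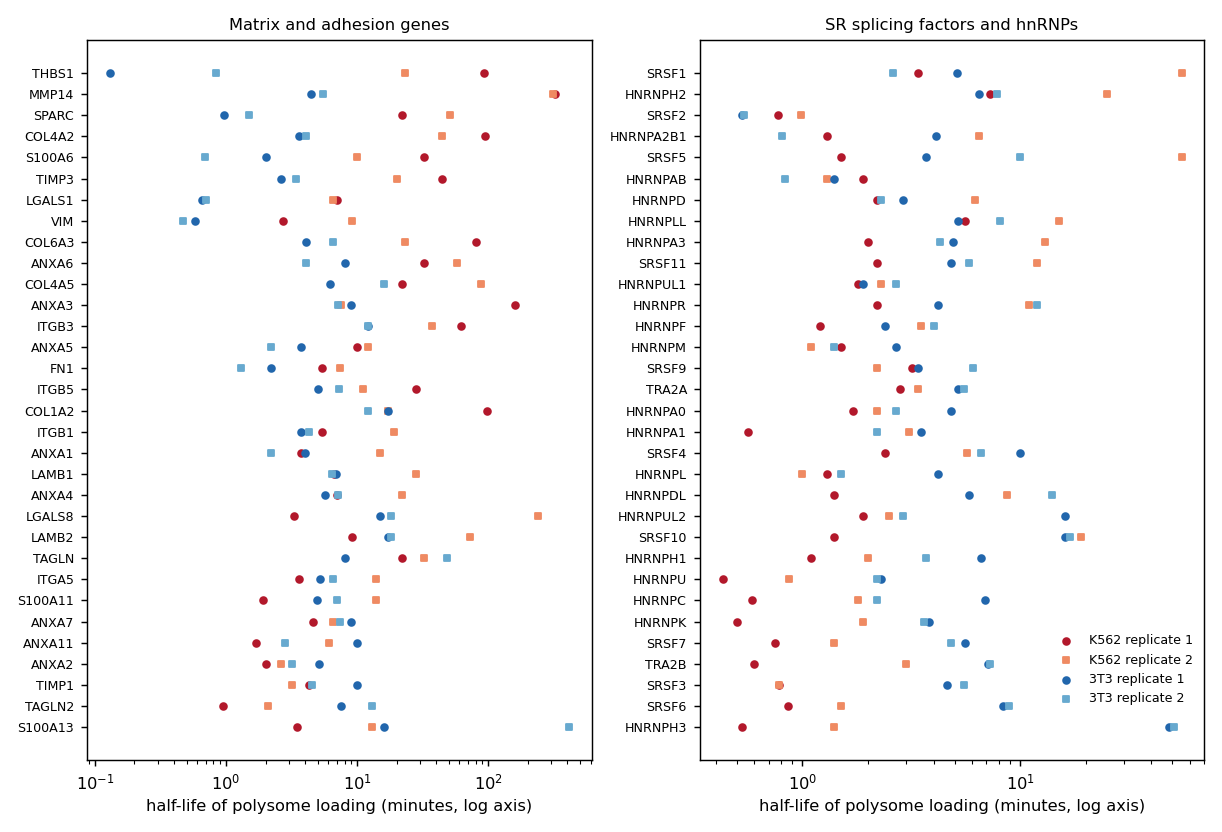
Loading half-life in minutes (log axis) of every member of the matrix and adhesion list and of the SR protein and hnRNP list in the 4 tables, ordered by the centred difference between the lines. On the left K562 values lie mostly to the right of 3T3, with S100A13 and TAGLN2 among the exceptions, and on the right mostly to the left, with SRSF1 and HNRNPH2 among the exceptions.

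Solute carriers and lysosomal proteins leaned the same way as the matrix and adhesion list, with smaller differences. Solute carriers, the transporters of small molecules other than the mitochondrial SLC25 family, had medians of 10 and 19.5 minutes in K562 and 9.6 and 8.95 in 3T3. Their modes were longer without overlap in 46 of 106 after centring (43.4%) and shorter in 12 (11.3%). None of the 46 had intervals apart, and the 2 with intervals apart, SLC1A5 and SLC35A4, were shorter in K562. The raw median of the list changed sign, to -0.05, without K562 replicate 2. Lysosomal proteins had medians of 8.7 and 15 minutes against 7 and 8.6, with 14 of 33 longer (42.4%) and 4 shorter (12.1%) after centring. Intervals were then apart for 3 (HEXA, LAMP1 and NAGLU), all longer, as they were for 1.13% of all members. Their raw median changed sign too, to -0.10, without K562 replicate 2. The entry and folding machinery of the endoplasmic reticulum differed by 0.48 centred but overlapped raw (3.45 and 9.0 minutes against 4.8 and 4.7). Its shares were near those of all members, with 13 of 42 longer (31.0%, against 25.3%) and 9 shorter (21.4%, against 25.2%). Without K562 replicate 2 its raw median was -0.32. HSPA5, the main chaperone of the endoplasmic reticulum, had loading modes of 0.61 and 0.73 minutes in K562 and 0.97 and 0.99 in 3T3. Its cytoplasmic half-lives were short too, 0.99 and 2.9 minutes in K562 and 1 and 0.86 in 3T3. All lists of this paragraph had lower cytoplasmic medians than all members in every table. For the endoplasmic reticulum they were 26 and 12.5 minutes in K562 (all members 89 and 79) and 13 and 13 in 3T3 (36 and 34). The part of this in the loading values was not tested.

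SR splicing factors and hnRNPs, which choose splice sites and package nuclear RNA, had medians of 1.45 and 2.74 minutes in K562 and 4.8 and 4.15 in 3T3. All 32 matched genes were members. The median log2 difference was -0.84 raw and -0.68 centred, and modes were shorter in K562 without overlap in 14 of 32 (43.8%, against 25.2% of all members) and longer in 5 (15.6%, against 25.3%). Raw intervals were apart for 4, all shorter in K562, as they were for 1.58% of all members. HNRNPH3 had the largest difference, with 0.53 and 1.4 minutes in K562 and 48 and 51 in 3T3. SRSF6 read 0.86 and 1.5 minutes against 8.3 and 8.9, SRSF3 0.78 and 0.78 against 4.6 and 5.5, and SRSF7 0.75 and 1.4 against 5.6 and 4.8. SRSF1 read 3.4 and 55 minutes in K562, so that its direction was set by 1 table. The authors called nuclear degradation in at least 1 line for 18 of these 32 genes, against 628 of all 7861 members; the part of that call in the result was not tested. The core spliceosome had medians of 3.1 and 5.1 minutes against 5.2 and 5.2, with 12 of 41 shorter (29.3%) and 8 longer (19.5%) after centring, shares near those of all members.

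Ribosome biogenesis factors differed mostly in 1 direction. Their medians were 2.35 and 4.35 minutes in K562 and 5.85 and 6.8 in 3T3. After centring, modes were shorter in K562 without overlap in 26 of 44 (59.1%, against 25.2% of all members) and longer in 3 (6.82%, against 25.3%). NOP56 and NOP58, core proteins of the box C/D particles that guide methylation of ribosomal RNA, read 1.1 and 1 minutes against 3.5 and 3.6, and 2.2 and 2.3 against 8.4 and 7.7. EMG1, an rRNA-modifying enzyme, read 1.6 and 3.9 minutes against 22 and 22, and TSR1, a late 40S assembly factor, 0.7 and 1.5 against 5.3 and 5.2, both with intervals apart. FBL, the methyltransferase of the same box C/D particles, did not share the pattern, at 2.2 and 1.7 minutes against 2.7 and 1.5. DEAD-box and DEAH-box helicases, which unwind RNA in the nucleus and in translation, had medians of 3.45 and 6.65 against 8.05 and 8.35 minutes. After centring, 23 of 46 were shorter (50%, against 25.2% of all members) and 2 longer (4.35%, against 25.3%). DDX6, a helicase of translational repression and decapping, read 1.1 and 2.5 minutes against 5 and 5.7.

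Lists of the dividing nucleus lay on the same side. DNA replication genes had medians of 3.15 and 6.5 minutes in K562 and 8.05 and 7.0 in 3T3, with 17 of 44 shorter (38.6%) and 7 longer (15.9%) after centring. MCM7, a subunit of the replicative helicase, read 0.63 and 0.8 minutes against 4.9 and 5.5. The nuclear pore and transport receptor list had medians of 2.1 and 5.35 minutes against 6.35 and 5.45, with 24 of 46 shorter (52.2%) and 5 longer (10.9%). Its receptor IPO4 read 3.4 and 3.1 minutes against 20 and 16. Mitotic genes had 18 of 42 shorter (42.9%) and 3 longer (7.14%) after centring. Their medians were 2.5 and 5.65 minutes against 7.3 and 5.6, so that the raw medians overlapped. Ubiquitin-specific proteases, a list outside this group, had 19 of 41 shorter (46.3%) and 8 longer (19.5%) after centring. Their raw medians overlapped too, at 4.2 and 9.6 minutes against 9.2 and 9.1. Of all members 25.2% were shorter and 25.3% longer. Among these proteases 4 had intervals apart after centring, all shorter in K562 (of all members 1.31% were): USP7, USP10, USP20 and USP39. USP7, which removes ubiquitin from MDM2 and other proteins, read 0.99 and 0.73 minutes in K562 and 8.7 and 11 in 3T3.

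Both lists of mitochondrial translation had lower medians in K562, by an amount that depended on the table. Mitochondrial ribosomal proteins had medians of 4.55 and 7.35 minutes in K562 and 9.3 and 8.65 in 3T3, a log2 difference of -0.72 raw and -0.55 centred. Of 76 members, 25 were shorter after centring (32.9%, against 25.2% of all members) and 8 longer (10.5%, against 25.3%). Without K562 replicate 2 the centred median was -0.21. MRPS16 read 1.1 and 1.3 minutes in K562 and 9.1 and 12 in 3T3, and MRPS18B 2.1 and 1.7 against 9.2 and 12, both with raw intervals apart. The aminoacyl-tRNA synthetase list held 16 members, of which FARSA and FARSB, the cytosolic phenylalanyl enzyme, were the only ones not mitochondrial by name. Its medians were 6.22 and 7.1 minutes in K562 and 13 and 14.4 in 3T3. After centring, 7 of 16 were shorter (43.8%) and 2 longer (12.5%). Its centred median difference of -0.97 moved to -0.28 without K562 replicate 2. FARSA read 1.6 and 1.4 minutes against 9.2 and 5.6. Nuclear-encoded respiratory chain subunits overlapped between the lines, with medians of 3.8 and 7 minutes against 8.3 and 5. COX5B, a subunit of cytochrome c oxidase, read 1.8 and 1.3 minutes against 11 and 11, with raw intervals apart, and COX7A2L 4.6 and 27 against 2.6 and 2.2. Proteasome subunits also overlapped raw, at 3.1 and 6.2 minutes against 6.4 and 5.3. Their extremes were PSMB6, a core particle subunit, at 4.2 and 12 minutes against 0.92 and 0.51, and PSMC4, an ATPase of the cap, at 1.2 and 1.7 against 6.4 and 5.1. The 8 subunits of the CCT chaperonin, which folds actin and tubulin, had medians of 1.2 and 4.45 minutes against 4.15 and 3.79, from CCT5 at 0.7 and 1.2 against 4.3 and 3.4 to TCP1 at 0.91 and 6.9 against 0.53 and 0.78.

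Cytosolic ribosomal protein messages were among the fastest to load in both lines, and their medians overlapped between them. Large-subunit proteins (48 members) had medians of 0.94 and 2.2 minutes in K562 and 2.14 and 1.25 in 3T3, and small-subunit proteins (31 members) 1.3 and 1.9 against 1.6 and 1.2. This held for both subunits, raw and centred. For the large subunit 14 were longer (29.2%) and 10 shorter (20.8%) in K562 after centring, and for the small subunit 12 (38.7%) and 5 (16.1%). Of all members 25.3% were longer and 25.2% shorter. RPL15 and RPL23A had raw intervals apart and shorter in K562, at 0.96 and 1.2 minutes against 5.3 and 6.4 and at 0.55 and 0.41 against 2.7 and 2.7. RPL10 was longer, at 1.3 and 3.2 minutes against 0.28 and 0.4. The 3 ribosomal messages whose starts are printed above overlapped between the lines: RPS6 read 1.3 and 0.97 minutes against 1.6 and 0.44, RPL13A 0.28 and 0.26 against 0.28 and 0.23, and RPS12 0.63 and 1.1 against 0.97 and 0.73. Most of these modes lay well below the first labelling time of 15 minutes, where the order of values rests on the fitted model. Ribosomal protein genes have many processed pseudogenes, so single values are uncertain.

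TOP messages outside the ribosome, listed from textbook knowledge, overlapped raw and were longer in K562 after centring. Their medians were 1.64 and 3.5 minutes in K562 and 1.99 and 1.35 in 3T3, a difference of 0.78 after centring. On that scale 9 of 22 were longer (40.9%, against 25.3% of all members) and 2 shorter (9.09%, against 25.2%). EEF1A1, the elongation factor that brings tRNAs to the ribosome, read 1.2 and 5.6 minutes in K562 and 0.33 and 0.26 in 3T3. PABPC1, the poly(A)-binding protein, read 4.6 and 15 minutes against 0.87 and 1.4. Both, with VIM, had intervals apart after centring and longer in K562, as did 1.13% of all members. EEF2, the translocation factor, read 1.2 and 2 minutes against 3.2 and 1.3, so that its modes overlapped. TPT1 read 0.49 and 1.1 minutes against 0.43 and 0.38, with both K562 modes above both 3T3 modes but with overlapping intervals. COMMD6, at 5500 and 36 minutes in K562, was set by 1 table. Translation initiation factors as a whole, most of them not TOP messages, had shares near those of all members, with 14 of 47 shorter in K562 after centring (29.8%, against 25.2%) and 10 longer (21.3%, against 25.3%). Intervals were apart for 1 of them, EIF4A2, a helicase subunit of the cap-binding complex, which read 0.49 and 1 minutes in K562 and 4.6 and 3.8 in 3T3. EIF4ENIF1, a transporter of the cap-binding protein, read 11 and 3600 minutes in K562 and 14 and 13 in 3T3, so that 1 table set its difference.

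Start sequences were compared next. A C followed by 4 pyrimidines (C or T), looked for on the sense strand at the first base of the message only, opened 289 of 4678 members with a start in the RefSeq table (6.18%), against 4.07% of all 35116 starts in it. It opened 39 of 53 ribosomal protein genes (73.6%) and 10 of the 12 other TOP genes with a start. Messages with this start loaded sooner in every table than those without, with medians of 3.7 and 7.1 minutes against 5.9 and 11 in K562 and 7.1 and 6.9 against 9.4 and 8.9 in 3T3. Leaving out the ribosomal proteins narrowed the gap: the 250 other genes with this start had medians of 4.55 and 8.3 minutes in K562 and 8.1 and 7.7 in 3T3. Within the ribosomal proteins the order was not the same in all tables: the 39 with this start had medians of 1.3 and 2.4 minutes in K562 and 1.9 and 1.2 in 3T3, and the 14 with another start 0.753 and 2.35 in K562 and 2.14 and 1.45 in 3T3. The centred difference between lines had a median of -0.15 with the start and -0.02 without. Mouse starts were not used here.

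Transcript length showed little relation to the difference between the lines. Spearman's rho across 7860 genes between the centred difference and the human length was 0.04 for the 5′ untranslated region, -0.03 for the coding region and 0.05 for the 3′ untranslated region, taken from the transcript with the longest coding region in the GENCODE annotation of GRCh38. With the genes divided into 4 equal groups by coding length, from shortest to longest, the median difference ran 0.01, 0.11, 0.06 and -0.15. Differences in other steps of the same genes were weakly related to it too, though more than the lengths were. The rho of the loading difference with the difference in cytoplasmic half-life was 0.08, with that in nuclear half-life -0.10 and with that in whole-cell half-life -0.14. These steps were fitted from the same time courses, so they are not independent readouts. The cytoplasmic half-life itself was longer in K562, with a median log2 difference of 1.13.

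Responsive and housekeeping messages gave mixed pictures. Immediate early and AU-rich mRNAs, which are made and destroyed quickly, had 15 of 31 longer (48.4%) and 10 of 31 shorter (32.3%) in K562 after centring. Of all members 25.3% were longer and 25.2% shorter. EGR1, a zinc finger transcription factor of the growth response, read 5.3 and 10 minutes in K562 and 0.86 and 1.2 in 3T3, whereas JUND read 0.92 and 0.6 against 7.4 and 8.6, both with intervals apart. JUN read 3.8 and 4.3 minutes against 1.8 and 2.2, MYC 1.5 and 4.1 against 2.7 and 3.5, and ATF4 0.87 and 1.8 against 1.8 and 2. JUN was thus longer in both K562 tables, while MYC overlapped and ATF4 met at 1.8 minutes. GAPDH, a glycolytic enzyme, overlapped at 1.2 and 2.5 minutes against 2.5 and 1.6. ACTB, cytoplasmic actin, read 0.78 and 8 minutes in K562 and 0.25 and 0.25 in 3T3. ODC1, the first enzyme of polyamine synthesis, read 0.55 and 1.2 minutes against 2.8 and 2.2, and MYH9, nonmuscle myosin, 2.3 and 3.4 against 1.1 and 1. FTL, ferritin light chain, was no member, and FTH1, ferritin heavy chain, read 1.3 and 1.2 minutes against 0.69 and 0.51. TXNIP, a thioredoxin-binding arrestin, read 0.58 and 2.2 minutes against 3.1 and 2. TFRC, the transferrin receptor, read 0.7 and 6.5 minutes in K562 and 6.5 and 5.6 in 3T3, and CANX, the chaperone calnexin, 1.4 and 12 against 2.5 and 3.6, so both rested on the gap between the K562 replicates. The cytoplasmic half-life of CANX was 3.5 and 2.3 minutes in K562 and 2.3 and 1.5 in 3T3.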

How the data were processed

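The deposited tables are the authors' estimates of half-lives in minutes (unit: other, an absolute time). Per the labels and the description deposited with the tables, each comes from a Bayesian fit of 1 time course and gives a posterior mode, mean and 95% credible interval, unnormalized between tables. The submitters' processing notes name cutadapt 2.5, STAR 2.7.0a, hg38 and mm10. The settings of the fit are not given in the sources used here, and no read counts are in the tables. The authors' nuclear degradation call (unit: other) was used as deposited.

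Modes were taken to log2 and compared with limma 3.58.1 in R 4.3.3 (2 tables against 2, Benjamini-Hochberg adjusted), raw and centred on each table's median over members. Simulated data were given a scatter estimated for each gene from the replicate tables, shuffled among the 7861 genes. The error of that estimate adds to the spread of scatter among genes, so the simulation cannot measure the power in these data. The fit then recovered the size of the changes but called 0 of 50 genes even at a log2 change of 6, raw and centred. With a scatter of 0.3 it called 50 of 50 at a log2 change of 3. Lists were described by counts and medians. Start sequences came from RefSeq and lengths from GENCODE v29, both GRCh38.

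Members and lists were chosen with earlier results of these data known. Named genes were the 12 largest differences per direction with intervals apart and at most 4-fold (raw and centred), the 6 lowest p per direction, the extremes of 12 core lists and fixed housekeeping genes. Genes with modes from 1 to 120 minutes, and further list members, were added after values were seen. Alternatives covered the posterior mean, filters, weights, the variance prior, a replicate block and each table left out.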

Additional observations from a re-analysis of the deposited data

How the results depend on the processing

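The number of genes called by limma depended on almost every setting. On the raw scale, where 0 were called, the count was 67 with interval weights, 3 among members with intervals of at most 4-fold, 70 with no filter on the mode, 7 without genes called for nuclear degradation, 15 with posterior means and 6 with a variance trend. It was 0 without each table in turn. On the centred scale, where 8 were called, the counts were 65, 3, 76, 13, 18 and 1 in the same order, 0 for modes from 1 to 120 minutes, 15 when centred on the median of the 356 tightest members, and 0 to 188 without 1 table each. With the replicate number as a block the counts were 19 raw and 0 centred. The numbers join a human with a mouse line and do not pair the samples; deviations of same-numbered tables had a correlation of -0.01 across genes.

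Genes with intervals apart numbered 182 raw and 192 centred, 4 and 4 with intervals of at most 4-fold, 88 and 85 with modes from 1 to 120 minutes (added after the data were seen), and 3464 and 3975 by modes alone. Without 1 table each they ranged from 450 to 845 raw and from 488 to 784 centred, since fewer intervals then had to agree. The raw median difference over all members ranged from -0.65 without K562 replicate 2 to 0.29 without K562 replicate 1.

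Among the centred list medians, initiation factors gave -0.21 with posterior means and -0.47 raw, mitochondrial ribosomal proteins -0.72 raw, proteasome subunits -0.29 raw, SR proteins and hnRNPs -0.84 raw, and the endoplasmic reticulum list 0.21 with intervals of at most 4-fold. Without 1 table each, these medians ranged from 0.25 to 0.76 for small-subunit ribosomal proteins, -0.25 to 0.32 for elongation and release factors, 0.46 to 0.95 for the TOP list, -0.91 to -0.21 for mitochondrial ribosomal proteins, -0.75 to -0.00088 for the respiratory chain, -0.27 to 0.022 for the proteasome, -1.41 to -0.28 for aminoacyl-tRNA synthetases and -0.91 to -0.56 for SR proteins and hnRNPs. Of 79 named genes, 7 changed sign without 1 table: the raw log2 difference ranged from -1.1 to 2.0 for CANX, -1.05 to 0.25 for EEF2, -0.29 to 8.06 for EIF4ENIF1, -0.74 to 0.32 for GAPDH, -1.03 to 0.42 for MYC, -0.10 to 3.92 for SRSF1 and -3.11 to 0.11 for TFRC. The cause of these changes was not tested. With posterior means, with the block and after centring, 11, 11 and 8 of the 79 became significant, and no direction changed. Reads per gene are not in the tables, so no limit from depth can be given.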
